A study of Homo sapiens with 2 samples.

Results

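The genes described here encode the subunits of the proteasome, the chambered protease that degrades ubiquitin-tagged proteins, together with the proteins that cap it. The 38 members were named by gene symbol and not by a measured value, and their gene identifiers were found through the GENCODE annotation of GRCh37. A row was found for 37 of them among the 57736 genes measured. PSMB3, a structural subunit of the beta ring, is not analysed here, because the identifier that the annotation gives for it has no row. The question asked of the data was how the constitutive core, the immunoproteasome subunits and the regulatory subunits compare in level in 1 cell line.

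The proteasome core, called the 20S particle, is a stack of rings, with alpha subunits in the outer rings and beta subunits in the inner rings. The alpha subunits form the gate, and 3 of the beta subunits carry the cutting sites. The 19S regulatory particle caps the core. Its base holds a ring of ATPases that unfold the substrate, and its lid removes ubiquitin. Interferon-gamma is known to induce a second set of catalytic subunits, PSMB8, PSMB9 and PSMB10, which take the places of PSMB5, PSMB6 and PSMB7 in newly made particles. The particle so formed is the immunoproteasome, which is abundant in immune cells and shapes the peptides shown on MHC class I molecules.

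Poly(A)+ RNA was sequenced in 2 libraries of HEK293T, a human cell line first grown from embryonic kidney and later given the SV40 large T antigen. Both libraries came from wild type cells of this line grown in DMEM with serum, no treatment is given in their labels, and they formed a single group. The labels do not say whether the replicates came from separate cultures, so the spread between them may be technical. A single line cannot stand for kidney tissue. The libraries held 10593491 and 10104118 estimated counts, and a gene with 0 counts may still have had up to 3, which is 0.283 CPM (counts scaled to a fixed library total) in replicate 1 and 0.297 CPM in replicate 2. These limits hold for counting error alone, because PCR copies of a molecule are not separate observations. Of 8 kidney markers only LRP2 and PAX2 were detected, and UMOD and CDH16 were at 0 counts in both libraries. Among the leukocyte markers, looked at because immune cells carry immunoproteasomes, CD3E, MS4A1 and ITGAM were at 0 counts in both libraries, and PTPRC had 1 count in each. TPM is the share of transcripts, corrected for transcript length and brought to 1 total for both libraries, and a gene is called detected where both replicates reached 1 TPM or more.

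Nearly the whole set was present. Of the 37 members 35 were detected, against 27.7% of all genes and 63.7% of the protein-coding genes. The members that were not detected were PSMB8 and PSMB9. The detected members ran from 21.1 TPM for PSMB10 to 387 TPM for PSMA4 (means over both replicates). The TPM of all 37 summed to 0.463% of the library total in replicate 1 and to 0.453% in replicate 2. The 30 constitutive subunits, which are the core and 19S members without the immunoproteasome genes and the activators, had a median of 122 TPM. The median of their percentiles among the 12345 detected protein-coding genes was 91.7.

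**Figure D1:**
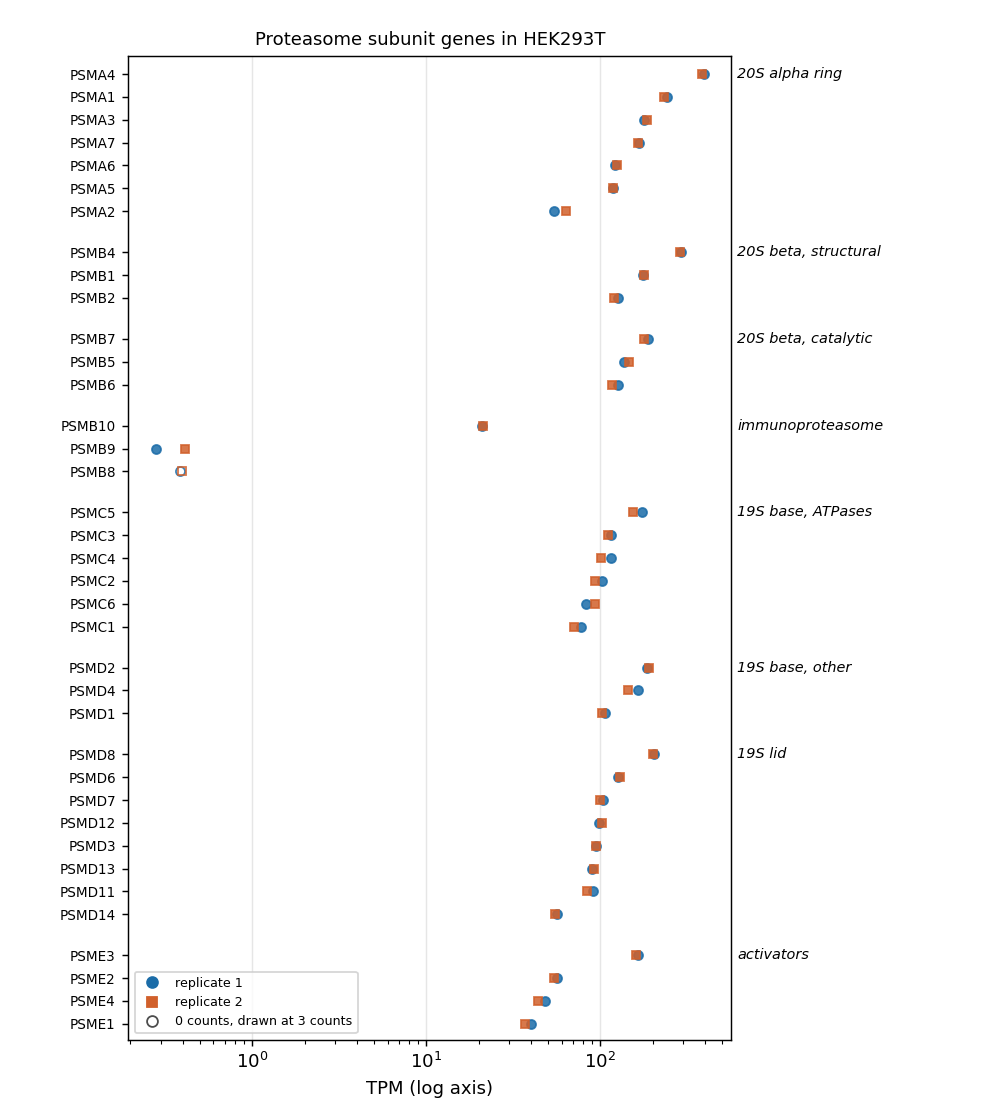
TPM of the 37 members in both replicates, on a log axis, grouped by place in the particle and ordered by mean within each group. Filled symbols are measured values, and the open symbols of PSMB8, which had 0 counts, are drawn at the TPM of 3 counts. The constitutive subunits lie between 55.5 and 387 TPM (means), PSMB10 lies at 21.1 TPM, and PSMB8 and PSMB9 lie below 1 TPM.

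The immunoproteasome subunits were far below the constitutive subunits whose places they take, and they differed among themselves. PSMB8 and PSMB9 lie next to each other in the MHC region, at chr6:32808494-32812456 on the minus strand and chr6:32811913-32827628 on the plus strand (GRCh37), and their spans overlap. PSMB10 lies on another chromosome, at chr16:67968409-67970767 on the minus strand. PSMB8 had 0 counts in both replicates, which allows up to 0.383 TPM in replicate 1 and 0.398 TPM in replicate 2. Its constitutive counterpart PSMB5, the chymotrypsin-like subunit, stood at 137 and 146 TPM. Against the limit of 3 counts per library PSMB8 was at least 358-fold lower in replicate 1 and at least 366-fold lower in replicate 2. PSMB8 was not detectable at this depth.

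PSMB9 had 1 count in replicate 1 and 3 counts in replicate 2, or 0.28 and 0.41 TPM. PSMB6, the caspase-like subunit that it replaces, stood at 126 and 117 TPM. The ratio was 451-fold in replicate 1, with an exact Poisson counting interval from 82.1 to 18060, and 284-fold in replicate 2, with an interval from 96.8 to 1372. With so few counts the transcript length assigned to PSMB9 also moved, from 534 nt to 1061 nt, so its TPM gives only an order of size. TAP1, a peptide transporter gene that lies within the span of PSMB9 on the other strand, was measured at 5.50 and 5.36 TPM.

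PSMB10 was the exception, with 102 and 97.6 counts, or 21.0 and 21.2 TPM (mean 21.1 ± 0.170, SD, n = 2). This put it at percentile 49.7 of the detected protein-coding genes. PSMB7, the trypsin-like subunit that it replaces, stood at 188 and 178 TPM, 8.97-fold higher in replicate 1 (counting interval 7.39 to 11.0) and 8.41-fold higher in replicate 2 (6.90 to 10.4). Summed over the trio, the immunoproteasome subunits reached 4.71% of the summed TPM of PSMB5, PSMB6 and PSMB7 in replicate 1 and 4.91% in replicate 2, and PSMB10 gave 20.98 of the 21.26 TPM of that sum in replicate 1. With 2 values against 2, an exact two-sided permutation test cannot go below 0.333, so no p-value is attached. In each of the 3 pairs both replicates of the immunoproteasome gene were below both of its counterpart.

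The level of PSMB10 depends on how reads are shared out. A gene annotated as protein coding with no symbol, ENSG00000261884, overlaps it on the same strand at chr16:67963517-67969920, and 51.2% of the 50-base windows of the PSMB10 coding sequence also occur in that gene. The overlapping gene received 134 and 116 counts. If all of these were counted for PSMB10, its TPM would be 48.5 and 46.4, and it would lie 3.88-fold and 3.84-fold below PSMB7. PSMB10 remained below the counterpart in both replicates under this limit.

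The sequences upstream of the immunoproteasome genes are shown because these genes differ most from the rest of the family and are known interferon targets. Each run holds the 250 bases before an annotated transcript start, from RefSeq on GRCh38.p14, which is not the build of the count tables. Capitals mark matches to GAAA, any 2 bases and GAAA again, the core of an interferon-stimulated response element, or to TTCNNNGAA, the palindrome that STAT dimers bind, both searched on both strands. Those shown are at chr6:32844048-32844297 on the minus strand, chr6:32853942-32854191 on the plus strand and chr16:67936851-67937100 on the minus strand.
PSMB8: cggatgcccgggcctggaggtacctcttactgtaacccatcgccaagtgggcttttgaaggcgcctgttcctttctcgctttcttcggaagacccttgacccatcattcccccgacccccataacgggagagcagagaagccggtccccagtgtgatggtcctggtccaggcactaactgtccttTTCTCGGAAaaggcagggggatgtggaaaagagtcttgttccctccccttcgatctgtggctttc
PSMB9: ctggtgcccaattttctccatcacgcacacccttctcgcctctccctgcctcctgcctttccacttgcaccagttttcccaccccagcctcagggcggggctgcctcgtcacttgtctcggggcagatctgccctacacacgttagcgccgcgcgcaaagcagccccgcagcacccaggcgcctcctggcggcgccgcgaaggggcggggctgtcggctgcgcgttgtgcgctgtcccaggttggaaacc
PSMB10: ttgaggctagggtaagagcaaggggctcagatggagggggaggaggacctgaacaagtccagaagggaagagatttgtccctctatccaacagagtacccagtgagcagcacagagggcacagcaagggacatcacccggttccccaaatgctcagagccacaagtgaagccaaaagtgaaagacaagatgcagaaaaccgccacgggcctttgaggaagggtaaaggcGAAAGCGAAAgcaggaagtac
The PSMB10 window holds a match to the response element close to its start. The PSMB8 window shown holds a match to the STAT palindrome, and another annotated start of PSMB8 has no match to either motif in its window. The PSMB9 window has no match to either in these letters. Over the 32 members with a promoter in the table, 4 held the response element (PSMA4, PSMB4, PSMB10 and PSME2), against 3.71% of 27305 genes. The STAT palindrome was present in 6 members, against 8.09% of genes. TGACNNNGC, the antioxidant response element bound by the NFE2 family, was present in 8 members, against 13.2% of genes. No matches of different motifs overlapped in the members' windows, and a match is a description of the letters and not a site.

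In the alpha ring, whose subunits form the gate of the core, the 7 genes were measured at 58.9 to 387 TPM (means), with a median of 166. PSMA4 was the highest member of all, with 392 and 382 TPM. PSMA1 followed with 242 and 233 TPM. PSMA2 was the lowest of this ring, with 54.2 and 63.5 TPM. The values of these 3 genes did not overlap. Equal numbers of each alpha subunit enter a particle, and the mRNAs of this ring nevertheless spanned 6.58-fold. The low end of that span, PSMA2, depends on how reads are shared out. All windows of its coding sequence also occur in the overlapping ENSG00000256646, which received 198 and 214 counts, against 516 and 600 for PSMA2. If some of those counts belong to PSMA2, the span was narrower. The span with those counts added was not computed. The remaining 4, PSMA3, PSMA5, PSMA6 and PSMA7, had means from 119 to 181 TPM. The replicates of PSMA5 were the closest in TPM, at 119 and 118. Its counts were 771 and 843, and its assigned transcript length moved from 919 to 1039 nt. By counts it had the largest log2 ratio of these 4 between the libraries, at 0.21.

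In the beta rings the structural subunits PSMB1, PSMB2 and PSMB4, which carry no cutting site, had means of 177, 122 and 287 TPM. PSMB4, at chr1:151372036-151374413, was the highest with 289 and 285 TPM, above PSMA1 and below PSMA4 in both replicates. The catalytic trio was narrower. PSMB7 stood at 183 ± 6.94, PSMB5 at 142 ± 5.88 and PSMB6 at 121 ± 6.75 TPM (SD, n = 2). Their order was the same in both replicates, and the range of the trio was 1.51-fold.

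In the base of the regulatory particle the 6 ATPases, which unfold substrates and open the gate, ran from 74.1 TPM for PSMC1 to 164 TPM for PSMC5 (means), a range of 2.21-fold with a median of 103 TPM. PSMC5 stood at 174 and 153 TPM, above the other ATPases in both replicates. PSMC3 had 115 and 111 TPM, PSMC4 116 and 101 TPM, and PSMC2 102 and 93.3 TPM, so the middle of the ring overlapped. PSMC6 had 82.6 and 93.4 TPM. The non-ATPase subunits of the base were PSMD2 and PSMD1, the large scaffolds, and PSMD4, a ubiquitin receptor. PSMD2 stood at 186 and 191 TPM, PSMD4 at 165 and 144 TPM, and PSMD1 at 106 and 102 TPM. PSMD4 was also the single member whose deposited TPM intervals did not overlap between the replicates, 149 to 170 against 129 to 148.

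The 8 lid genes had a median of 97.2 TPM. PSMD8, a scaffold subunit, was the highest with 202 and 201 TPM. PSMD14, the deubiquitinase of the lid and the enzyme that removes ubiquitin chains as substrates enter, was the lowest, with 56.4 and 54.6 TPM. It was also the lowest of the 30 constitutive subunits, although its replicates overlapped those of PSMA2. PSMD7, the partner with which PSMD14 forms a dimer, stood at 104 and 99.6 TPM. The remaining scaffolds, PSMD3, PSMD6, PSMD11, PSMD12 and PSMD13, had means from 87.0 to 128 TPM.

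The activators bind the core in place of the 19S particle. PSME3, which forms a nuclear activator ring, had 164 and 160 TPM. PSME1 and PSME2, the interferon-inducible pair that forms the cytosolic PA28 ring, were lower, with 39.7 and 36.8 TPM for PSME1 and 56.5 and 53.9 TPM for PSME2. PSME4, the large single-chain activator, had 47.9 and 43.7 TPM. No pair of these 4 genes overlapped between replicates, and PSME3 was 4.23-fold above PSME1 in the mean. The interferon-inducible activators were present, at means of 38.3 and 55.2 TPM, in the libraries in which PSMB8 and PSMB9 were not detected.

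The core and the cap were then set side by side. The 13 core members had a median of 166 TPM and the 17 regulatory members a median of 102 TPM, so that the log2 ratio of the medians was 0.68 in replicate 1 and 0.71 in replicate 2. The 2 sets overlapped widely, with 58.9 to 387 TPM in the core and 55.5 to 201 TPM in the cap. This order depends on the correction for length. In CPM, which is not corrected for length, the log2 ratio of the medians was -0.07. Over the 30 constitutive subunits Spearman's rho of mean TPM with mean transcript length was -0.629, and that of mean count with length was 0.264. Both are descriptions across genes, which share the libraries and are not independent replicates.

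Levels of the 30 constitutive subunits were similar but not equal. Of these, 26 lay within 2 times of their median in either direction, the SD of the log2 mean TPM was 0.63, and the highest was 6.99-fold above the lowest. The replicates kept nearly the same order, with a rho of 0.984 across these genes, and the median coefficient of variation between replicates was 2.69%. Of 29 neighbouring pairs in the order of mean TPM, 11 had replicates that did not overlap. At the top PSMA4, PSMB4, PSMA1 and PSMD8 were each separated from the next gene, and PSMD2 overlapped PSMB7. From PSMC3 down to PSMD3 no neighbour was separated from the next. For comparison, the 8 genes of TRiC, the chaperonin ring that folds actin and tubulin, ran from 293 TPM for CCT2 to 692 TPM for CCT3, with an SD of 0.41 and a range of 2.36-fold. The 30 proteasome genes pool several rings and the lid, and their spread was the wider by this measure. Taken singly, the groups lay on both sides of TRiC. The SD was 0.86 in the alpha ring, 0.62 in the structural beta subunits and 0.53 in the lid. It was 0.43 in the non-ATPase subunits of the base, 0.39 in the ATPases and 0.30 in the catalytic trio. No test is attached, since genes are not replicates.

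Several members share sequence with other genes, and their estimated counts are the result of dividing reads among them. Of the 37 coding sequences 21 had no 50-base window in common with the searched transcripts of another gene on either strand. At least 1 was shared by 16, and 11 shared over 5% of their windows. The search covered 180506 of the 196317 transcripts measured. The counts of 19 members were whole numbers in both replicates, and those of the other members were not. PSMC1 was the clearest case. Its 1320-base coding sequence, from the gene at chr14:90722871-90741773, has a processed pseudogene copy without introns, PSMC1P1, at chr3:68684856-68686175 on the plus strand, which differs from it at 1 base, T885A, counted from 1 at the start of the coding sequence. The 50 bases around that difference, coding bases 860 to 909, are shown with the differing base in capitals, because a read that lies outside them within the coding sequence cannot tell the genes apart. The copy's stretch is at chr3:68685715-68685764 (GRCh37).
PSMC1: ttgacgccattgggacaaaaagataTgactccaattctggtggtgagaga
PSMC1P1: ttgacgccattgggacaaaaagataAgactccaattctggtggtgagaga

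PSMC1 received 925 and 820 counts, with deposited posterior SDs of 55.9 and 52.8 counts. PSMC1P1 received 641 and 606 counts, with SDs of 56.0 and 53.2, or 67.6 and 66.3 TPM. The split gave PSMC1 59.0% of the summed counts in replicate 1 and 57.5% in replicate 2. Added together the pair had 145 and 137 TPM, whereas PSMC1 alone was the lowest of the ATPases with 77.7 and 70.5 TPM. Its place at the bottom of the ATPase ring therefore depends on the division of reads. Pseudogene copies were counted where their symbol is that of a member followed by P and an optional number, copies on chromosome Y left aside. Of these 36 with a row, from 14 parent genes, 18 were at 0 counts in both replicates. A mean of at least 1 TPM was reached by 4: PSMC1P1, PSMC1P5, PSMC2P1 and PSME2P3. PSMC1P5 had 0 counts in replicate 1, and 6.43 counts with a posterior SD of 7.72 in replicate 2. Copies under other names, which were not counted, also share windows with members.

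Overlapping genes and shorter copies also shared sequence with members. PSMA2 shared all of its windows with ENSG00000256646, a protein-coding gene annotated across it at chr7:42948872-42971813 on the same strand, which received 198 and 214 counts. PSMA6 shared 89.3% of its windows with the overlapping ENSG00000258790, which received 121 counts in both replicates, and 97.0% with any other gene, pseudogene copies included. PSMA1 shared 84.1% with ENSG00000256206, which received 0 counts in both. With any other gene PSMC6 shared 47.3% of its windows, PSMD7 28.1%, PSMD4 25.05% and PSME2 22.0%. The posterior SD was 5.06% and 6.15% of the count for PSMB10, 6.05% and 6.44% for PSMC1, 3.23% and 2.67% for PSMA2, and at most 1.15% for the other members with counts.

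**Figure D2:**
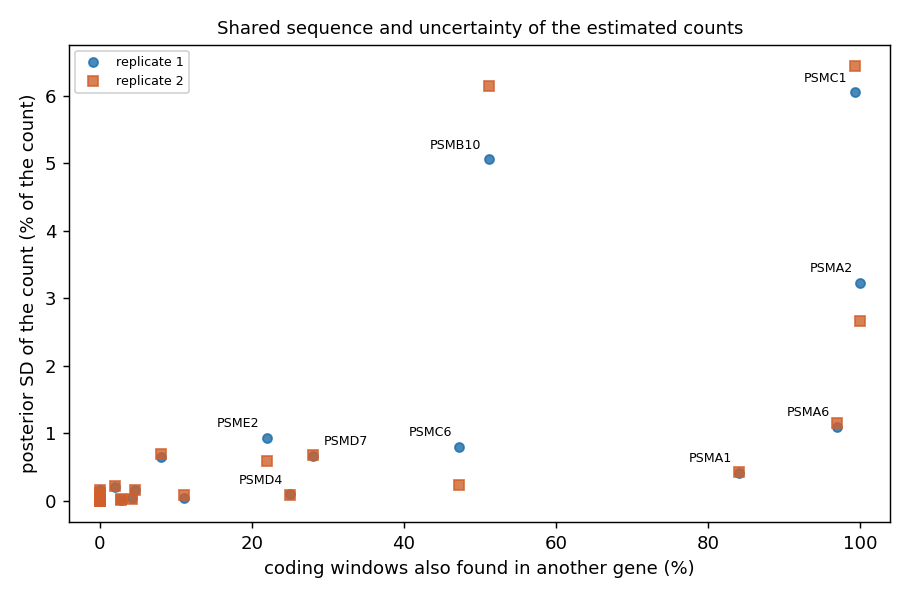
Posterior SD of the estimated count, as a percent of the count, against the percent of coding windows of 50 bases that also occur in another gene, for 36 members in both replicates (PSMB8, with 0 counts, is not drawn). PSMC1, PSMB10 and PSMA2 stand above 2%, and PSMA1 and PSMA6, which share most of their windows, stay below 1.2%.

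The libraries were compared to learn whether any member differed between them by more than counting error. Rounded counts were compared by an exact binomial test, two-sided, with Benjamini-Hochberg adjustment over all 17920 genes tested. This test compares 2 libraries, not conditions. Of the 35 members tested 2 differed, against 3.88% of all genes, and both were higher in replicate 2, against 2.14% of all genes in that direction and 1.74% in the other. PSMA2 had 516 and 600 counts, a log2 ratio of 0.30, and an adjusted p of 0.0221 in the exact binomial test. PSMC6 had 584 and 680 counts, a log2 ratio of 0.30, and an adjusted p of 0.0109 in the same exact test. Both share sequence with other genes, and the test takes no account of the posterior SD. Their deposited TPM intervals overlapped between the replicates. PSMD4, whose intervals did not overlap, did not differ here, with an adjusted p of 0.274 in the exact binomial test. Unadjusted, 6 members (17.1%) had a p under 0.05 in the exact test, against 13.3% of all genes tested and 21.8% of those with a summed count of at least 1000. The median absolute log2 ratio of the members with a summed count of at least 1000 was 0.06, and it was 0.06 over all 4823 genes of that depth.

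**Figure D3:**
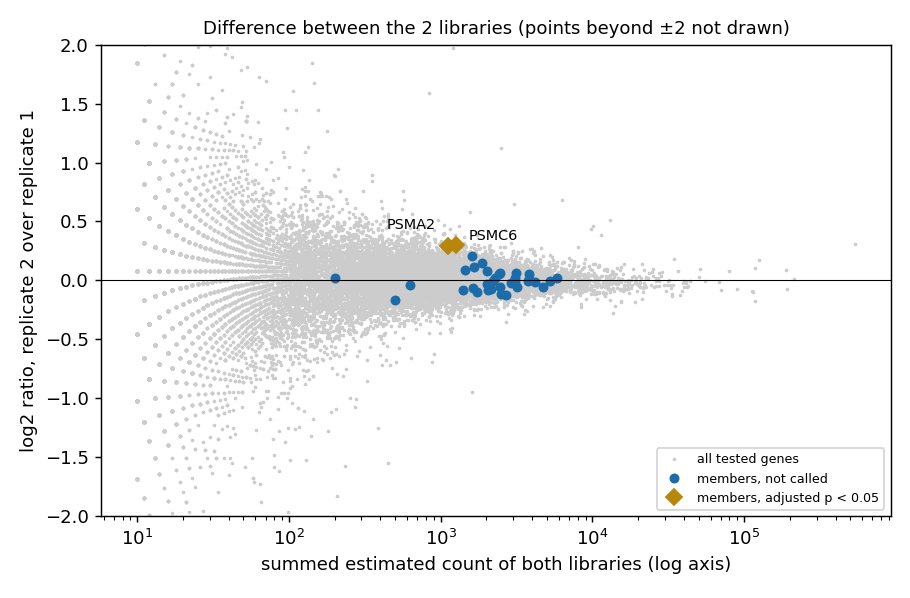
Log2 ratio of replicate 2 over replicate 1 against the summed estimated count of both libraries (log axis), with all 17920 tested genes in grey and the 35 tested members in colour. PSMA2 and PSMC6, the 2 members with an adjusted p under the threshold, lie at 0.30. Grey points of similar summed count lie as far out, and the other members also lie within the grey cloud.

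Genes that assemble, regulate or feed the proteasome were examined as 6 lists with 32 genes in all. Of these 29 were detected, against 63.7% of the protein-coding genes. In the exact binomial test 0 of 30 tested differed between the libraries, against 3.88% of all genes, and the smallest adjusted p was 0.0643. Unadjusted, 4 genes had a p under 0.05 in the same test, against 13.3% of all genes tested. SEM1, a small lid subunit, had 135 and 129 TPM, and ADRM1, a ubiquitin receptor of the base, had 114 and 103 TPM. The tissue-restricted core subunits PSMA8, known from testis, and PSMB11, known from thymus, had 0 counts in both replicates. The inhibitor PSMF1 was the highest of the assembly and inhibitor list with 201 and 193 TPM. PSMG1, an assembly chaperone of the alpha ring, had 162 and 150 TPM, while its partner PSMG2 had 33.1 and 31.5 TPM. POMP, a maturation factor of the core, had 73.2 and 80.1 TPM. PSMD5, a chaperone of the base, was the lowest with 9 and 10 counts, or 0.82 and 1.24 TPM, and was the single gene of its list that was not detected.

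The enzymes bound to the particle had means from 67.7 TPM for USP14 to 146 TPM for UCHL5, both deubiquitinases, and the ligase UBE3C lay between them. Among the factors that bring substrates, VCP, the segregase, had 253 and 226 TPM, and the shuttle factor RAD23B had 246 and 230 TPM, whereas UBQLN2 was the lowest of the list with 27.8 and 28.4 TPM. The ubiquitin genes UBB and RPS27A had means of 1838 and 736 TPM, above every proteasome member in both replicates. NFE2L1, the transcription factor known to raise proteasome genes when the protease is inhibited, had 89.2 and 67.7 TPM. Its relative NFE2L3 was lower, with 12.6 and 15.8 TPM. NGLY1 and DDI2, which process NFE2L1 into its active form, had means of 38.2 and 37.7 TPM.

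**Figure D4:**
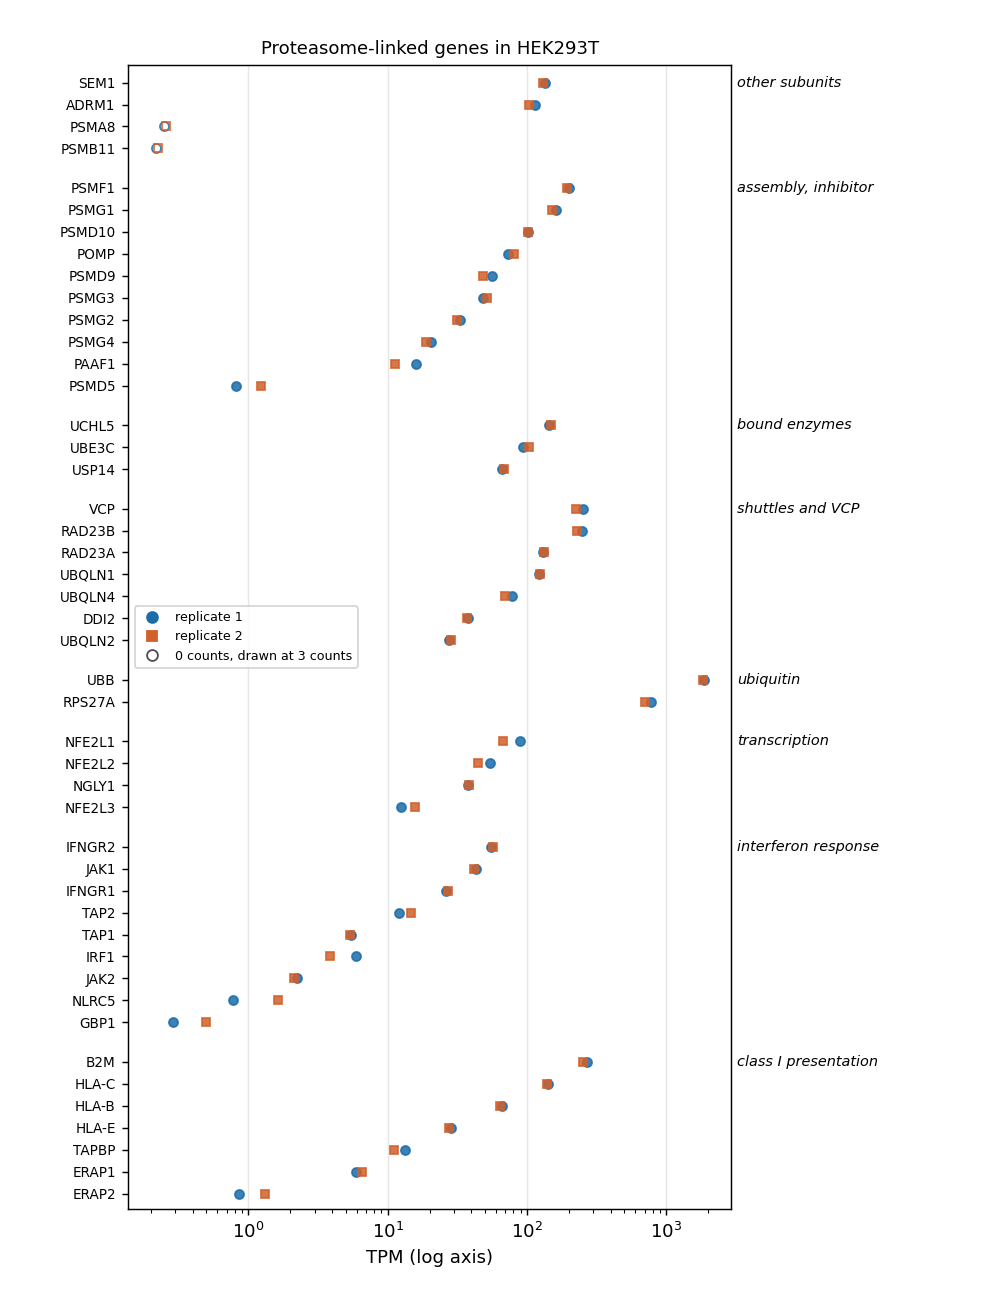
TPM in both replicates, on a log axis, of genes from 8 lists linked to the proteasome, ordered by mean within each list. Open symbols, for PSMA8 and PSMB11 with 0 counts, are drawn at the TPM of 3 counts. UBB and RPS27A lie at 699 TPM or more, and GBP1, NLRC5, PSMD5 and ERAP2 fall below 1 TPM in at least 1 replicate.

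The genes through which interferon-gamma acts were listed because it is the known inducer of PSMB8, PSMB9 and PSMB10. Of 10 genes 8 were detected, against 63.7% of the protein-coding genes. The receptor and its kinase were present, with means of 26.8 TPM for IFNGR1, 56.4 for IFNGR2 and 42.4 for JAK1, while JAK2 had 2.24 and 2.15 TPM. IRF1, an interferon-induced factor known to act on PSMB9, had 5.94 and 3.84 TPM. Its counts were 62.0 and 62.1, and its assigned transcript length moved from 1449 to 2299 nt. The targets GBP1 and NLRC5 were not detected, with 0.29 and 0.50 TPM and with 0.78 and 1.63 TPM. TAP1 and TAP2, in the same list, were detected, with 5.50 and 5.36 TPM and with 12.2 and 14.6 TPM. JAK2 differed between the libraries, with 35 and 65 counts and an adjusted p of 0.0359 in the exact binomial test. It was the single gene of the 9 tested in this list to do so, against 3.88% of all genes. The transcript length assigned to JAK2 moved from 2146 to 4267 nt, so its TPM did not rise with its counts. In the class I presentation list 7 of 8 genes were detected, against the same 63.7%. B2M had 271 and 252 TPM, HLA-C 141 and 138 TPM, and HLA-B 66.1 and 64.4 TPM, and ERAP2, which trims peptides, was not detected with 0.86 and 1.33 TPM. HLA-E, TAPBP and ERAP1 were lower, with means of 27.9, 12.2 and 6.25 TPM, and the median of the list was 43.2 TPM. HLA genes are near-identical to one another, so that their single values are uncertain.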

How the data were processed

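The data are 2 poly(A)+ RNA-Seq libraries of untreated HEK293T cells. The study's methods name featureCounts for counting, whereas the deposited columns are those of RSEM and the submitters' processing notes list Trimmomatic 0.36, STAR 2.6.1c and RSEM 1.3.1, and the tables were therefore treated as output of RSEM on GRCh37. Estimated counts were deposited by the authors and divide a read that matches several genes among them. The authors' deposited TPM is corrected for transcript length and scaled to a fixed total. FPKM values, also deposited by the authors, are corrected for length and library size. Posterior SDs and 95% interval bounds are scores deposited by the authors. The intervals belong to the posterior mean TPM, and the TPM of 8 members lay above its interval in each replicate. A pooled table holds the authors' estimated counts, and for 36 of 37 members the pooled value differed from the replicates' sum by at most 1% or 1 count (PSMB10 was the exception). The strand setting of the counting was not stated.

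Symbols and coordinates were taken from GENCODE release 44 in its GRCh37 version, which matched 96.1% of identifiers. The members and lists were chosen with earlier results of these data known. Every member could be named, as could the genes of the lists. Pseudogene copies that carry a member's symbol could be named at a mean of at least 1 TPM. Genes that overlap a member could be named where that member's counts are not whole (within 0.005). Lists without members gave their highest and lowest genes and those a result turns on. Some genes of these lists are not reported here.

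A single group allowed no test between conditions. The libraries were compared with an exact two-sided binomial test of counts rounded to whole numbers, against library sizes scaled by TMM in edgeR 4.0.16 (R 4.3.3), with scipy 1.17.1. Benjamini-Hochberg adjustment ran over the genes whose counts summed to 10 or more. Log2 ratios used 0.5 added counts. The test was run on simulated counts with known changes and counting error alone, which is the error it assumes. That run cannot show how the test behaves where libraries differ by more than counting error. Ratios to PSMB8, which had 0 counts, used 3 counts per library, and counting intervals are exact 95% Poisson intervals of the lower gene. Coding sequences of the members were cut into windows of 50 bases and searched on both strands in 180506 of the 196317 transcripts measured.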

Additional observations from a re-analysis of the deposited data

How the results depend on the processing

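The number of detected members was 35 or 36 under other thresholds of TPM, FPKM or counts and in either replicate alone. The log2 ratio of the summed immunoproteasome to constitutive catalytic TPM was -4.38 (SD 0.0428, n = 2). It was -4.29 with posterior mean TPM, -4.85 in CPM and -6.70 as the mean of the 3 pairwise ratios, and -3.22 with the counts of ENSG00000261884 added to PSMB10, an alternative chosen after seeing the data. PSMB8 over PSMB5 was -8.50 with 3 counts in place of 0, -7.84 with posterior mean TPM, -7.15 with a pseudocount of 1 TPM and -8.39 in CPM. PSMB9 over PSMB6 was -8.48, and it was -6.27 with posterior mean TPM and -6.51 with the pseudocount. PSMB10 over PSMB7 was -3.12, and it was -3.61 in CPM and -1.95 with the added counts. All of these stayed below 0. The log2 ratio of the median of the core to that of the cap was 0.69 and turned to -0.0681 in CPM, which is not corrected for length. The SD of the constitutive subunits, 0.63, was 0.62 with posterior mean TPM, 0.55 in CPM, 0.61 with pseudogene copies added and 0.70 over members with whole counts. With replicate 2 or replicate 1 left out the summed ratio was -4.41 or -4.35, and the log2 ratio of the core to the cap was 0.68 or 0.71.

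With RLE or total-count scaling, with no filter and with a summed count of at least 100, 2 members differed between the libraries. Among all genes tested, 752 of 17920 differed with RLE scaling and 704 of 17920 with total counts. With no filter 564 of 30700 differed, and with the higher filter 506 of 11885. The number of members that differed was 0 over the 8675 genes with whole counts, of which 71 differed in the exact binomial test. PSMA2 and PSMC6 have counts that are not whole and were left out there by construction. Leaving out a library was not possible for this comparison. No paired analysis was possible because there is only 1 group. The depth limits PSMB8 to an upper bound and PSMB9 to an order of size, and the deposited values carry no test of levels between genes.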
